A study of Caenorhabditis elegans with 14 samples.

Results

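The Hedgehog-related and patched-related genes of Caenorhabditis elegans were followed in total and polysomal RNA of a pycr-1(wrm22) strain and of wild type. The genes were taken by name alone, as every single-name entry of the deposited table called wrt, grd, grl, hog, qua, ptc or ptr with a number. This gave 87 of 41875 entries. Of these, 61 were ligand-like (10 wrt, 17 grd, 32 grl, hog-1 and qua-1) and 26 were receptor-like (3 ptc and 23 ptr). All 87 were found in the Ensembl release 115 annotation of the build WBcel235, where 84 were coding genes and grd-17, grl-32 and ptc-2 were pseudogenes.

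Synchronized gravid adults of day 1, grown at 20 °C on the bacterial strain OP50, were lysed in the presence of cycloheximide, a drug that stalls ribosomes on their mRNA. There were 4 libraries of pycr-1(wrm22) polysomal RNA, 4 of pycr-1(wrm22) total RNA, 3 of wild-type (Bristol N2) polysomal RNA and 3 of wild-type total RNA. Polysomal RNA was collected from gradient fractions whose mRNAs carried at least 3 ribosomes, and total RNA from whole lysates of many pooled worms. The strain is named for pycr-1, which codes for the reductase of the last step of proline synthesis, and what the allele wrm22 changes was not given in the sources used here. The table listed pycr-1 as M153.1, and it was higher in the groups labelled mutant. Its level was 20.3 FPKM in mutant and 4.91 FPKM in wild-type total RNA, and 40.8 FPKM in mutant and 12.6 FPKM in wild-type polysomal RNA. The strains are therefore named as labelled, and every direction below rests on those labels.

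An FPKM is a fragment count divided by the length of the transcript and by the size of the library, so levels of different genes can be compared. Each gene had a single pooled FPKM in a group. No spread between libraries could therefore be computed, and the depth of the libraries was unknown. All FPKM values, fold changes and adjusted p-values below come from the authors' deposited table, where Cuffdiff had adjusted p over 91924 tests of 6 comparisons. A gene is said to have risen or fallen where that adjusted p was under 0.05. Errors after ± are SEs derived from the deposited test statistics, after dividing the variance of a group by its number of libraries (3 or 4). Whether replicates were separate cultures is not in the labels, and the p-values then cover the spread among these libraries alone.

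In most animals a secreted Hedgehog protein binds the membrane protein Patched and so releases the activator Smoothened. Nematodes lack a true Hedgehog and a Smoothened, yet have large families derived from the same parts. Warthog (wrt), Groundhog (grd), Ground-like (grl), Quahog (qua) and Hog proteins are secreted or predicted to be, and several of them keep the self-cleaving domain of Hedgehog. The ptc genes are Patched homologues and the ptr genes encode patched-related proteins with a sterol-sensing domain. Members of both groups are known from the epidermis, where they act in molting and in the matrix under the cuticle, and from glia, while ptc-1 acts in the germ line.

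Most of the genes were weakly expressed in these adults. Of the 87, 51 reached 1 FPKM in at least 1 group and 36 stayed under it in all 4. The grl family held 21 of those 36, and 9 of its 32 genes were listed at 0 in wild-type polysomal RNA. Only a few genes carried most of the signal. In pycr-1(wrm22) total RNA the order from the top was grd-5, ptc-1, grl-16, grd-3 and grd-14, whereas in wild-type total RNA it was ptc-1, grd-3, grd-5, ptr-2 and grd-10. The summed level of the ligand-like genes was 670 FPKM in mutant and 406 FPKM in wild-type total RNA, and that of the receptor-like genes was 297 FPKM in mutant and 375 FPKM in wild-type total RNA. The sum over all entries also differed, at 1.86e+06 FPKM in mutant and 1.13e+06 FPKM in wild-type total RNA. A difference in a sum, here or below, is therefore not a difference in the share of all FPKM.

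**Figure D1:**
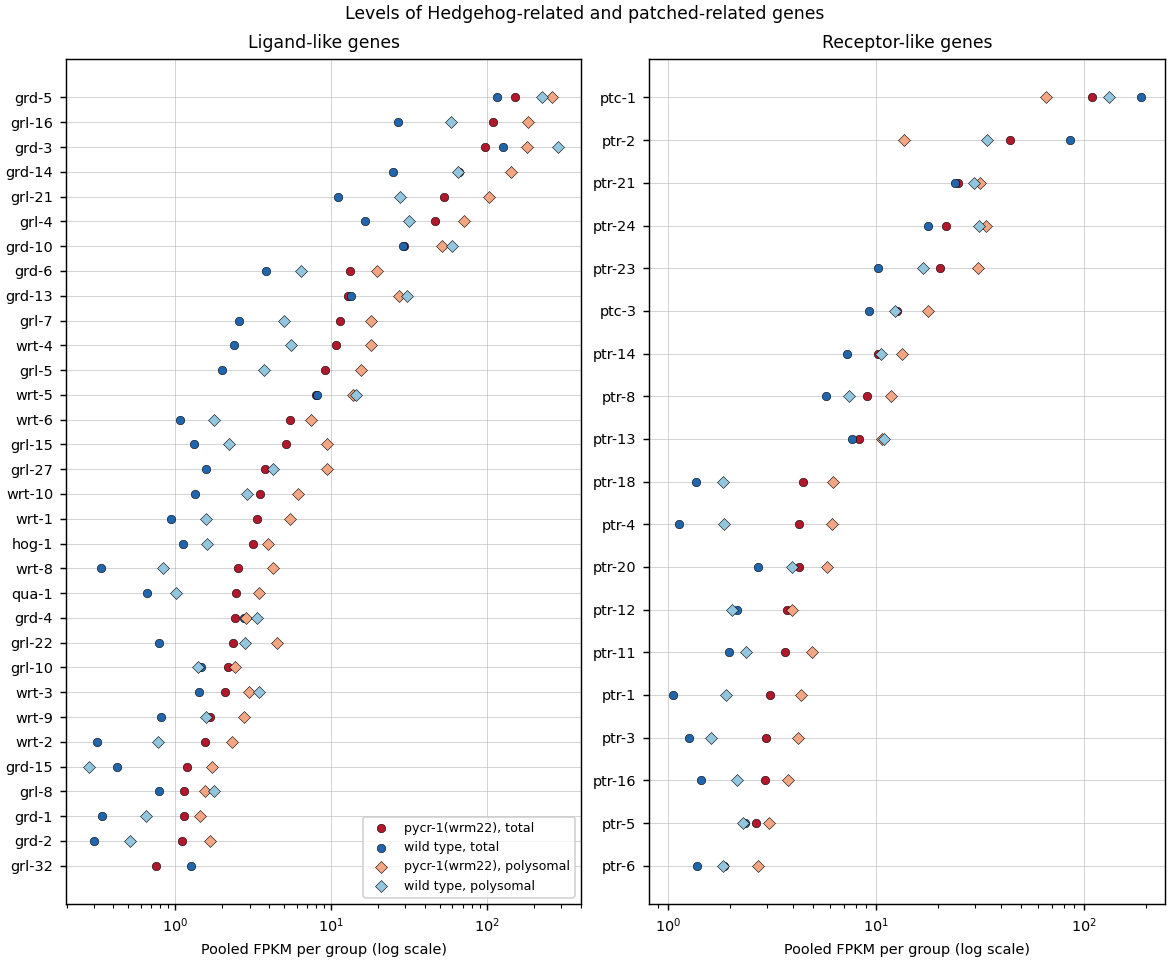
Pooled FPKM (log axis) of the ligand-like and receptor-like genes that reached 1 FPKM in at least 1 group, 1 point per group and no error bar because the files held no value per library. Red and blue circles are mutant and wild-type total RNA, and orange and light blue diamonds are the polysomal RNA of the same strains; grl-32 has no diamond because it was listed at 0 there. Most red circles lie right of the blue ones. Those of ptc-1, ptr-2, grd-3, grd-4, grd-13 and grl-32 lie left, and that of wrt-5 does so by very little.

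In total RNA, 36 of the 58 family genes that were tested rose in pycr-1(wrm22), 3 fell and 19 did not pass the threshold. Over all 15557 entries tested, 18.6% rose and 27.9% fell. The median log2 fold change of the ligand-like genes was 1.51 over 35 tested, that of the receptor-like genes 0.65 over 23 tested and that of all entries -0.04. On the log2(FPKM + 0.1) scale over all genes, untested ones included, the medians were close, 0.55 for 61 ligand-like and 0.52 for 26 receptor-like genes. The 29 family genes that were not tested had at most 0.307 FPKM in the 2 total RNA groups, and those that were tested reached 0.358 FPKM or more in 1 of them. A low gene could thus enter the test through its higher group alone. The animals were whole worms, in which fewer cells of a type and less RNA per cell cannot be told apart.

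**Figure D2:**
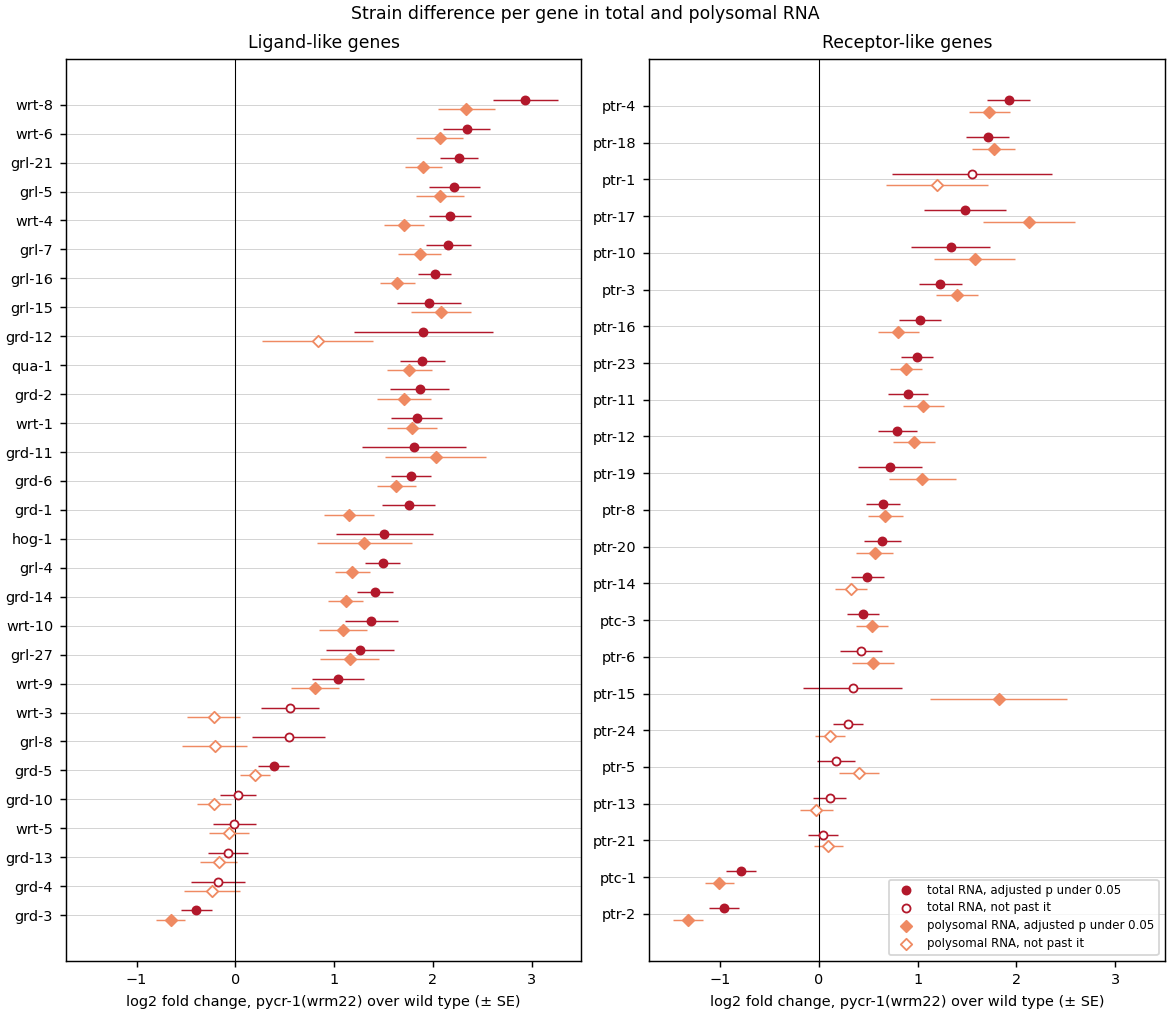
Log2 fold change of pycr-1(wrm22) over wild type in total RNA (circles) and polysomal RNA (diamonds) with its implied SE, for genes tested in both fractions; genes with an SE of 1 or more are left out. Filled symbols have an adjusted p under 0.05. The ligand-like genes run up to 2.93 for wrt-8, while among the receptor-like genes ptr-2 and ptc-1 lie left of 0 in both fractions.

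Among the Warthog genes 6 of 9 tested rose and 0 fell. The largest rise of all family genes was that of wrt-8, on chromosome V (15342056 to 15344572, minus strand, with 11 coding exons). Its level was 2.54 FPKM in mutant and 0.332 FPKM in wild-type total RNA. In polysomal RNA it was 4.21 FPKM in mutant and 0.832 FPKM in wild type. The deposited log2 fold change was 2.93 ± 0.33 in total and 2.34 ± 0.28 in polysomal RNA, both with an adjusted p of 0.000207, the smallest the table holds. Nearest to it was wrt-6, a gene known from glia, with 5.46 FPKM in mutant and 1.08 FPKM in wild-type total RNA (2.34 ± 0.24). The gene wrt-4 stood at 10.8 FPKM in mutant and 2.39 FPKM in wild-type total RNA, with a deposited log2 fold change of 2.17 ± 0.21. The most abundant Warthog gene of wild type, wrt-5, did not pass the test, at 8.02 FPKM in mutant and 8.08 FPKM in wild-type total RNA (-0.01 ± 0.22, adjusted p = 0.97 in the authors' deposited table). Warthog genes thus differed among themselves in whether they passed.

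Of the Groundhog genes 7 of 12 tested rose and 1 fell. The highest in the mutant was grd-5 on chromosome V (8619032 to 8619869, plus strand). It had 152 FPKM in mutant and 116 FPKM in wild-type total RNA, and its log2 fold change of 0.39 ± 0.16 just passed (adjusted p = 0.035 in the authors' deposited table). On chromosome X (8499664 to 8501037, plus strand), grd-14 reached 66.4 FPKM in mutant and 24.9 FPKM in wild-type total RNA (1.41 ± 0.19 in the authors' deposited table). These abundant Groundhog genes therefore rose by unlike amounts, and grd-6 rose more than either. It stood at 13.2 FPKM in mutant and 3.85 FPKM in wild-type total RNA (1.78 ± 0.20 in the authors' deposited table). The exception was grd-3 on chromosome IV (3439655 to 3440453, plus strand), at 97.2 FPKM in mutant and 128 FPKM in wild-type total RNA (-0.39 ± 0.16, adjusted p = 0.031 in the authors' deposited table).

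How far grd-3 lay below wild type in total RNA depended on the scale. Entries at 5 FPKM or more in both groups had a median log2 fold change of -0.35 in total and -0.26 in polysomal RNA. Relative to these medians, grd-3 was at -0.04 in total and -0.40 in polysomal RNA, ptc-1 at -0.43 in total and -0.75 in polysomal RNA, and ptr-2 at -0.61 in total and -1.07 in polysomal RNA. No family gene that rose or fell changed its sign with this centring.

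Ground-like genes gave the largest change in summed level, 247 FPKM in mutant against 67.9 FPKM in wild-type total RNA. Of 12 tested, 7 rose and 0 fell. Only 3 of them, grl-4, grl-16 and grl-21, made up 84.6% of the family sum in mutant and 80.6% in wild-type total RNA. The most abundant was grl-16, at 109 FPKM in mutant and 26.96 FPKM in wild-type total RNA (2.02 ± 0.17 in the authors' deposited table). With grl-21, on chromosome IV (10737474 to 10738189, plus strand), the values were 53.5 FPKM in mutant and 11.1 FPKM in wild-type total RNA (2.26 ± 0.20 in the authors' deposited table). GRL-21 has been described with the patched-related PTR-24 in a pathway that acts on fat storage. The ptr-24 gene did not pass the test, at 21.8 FPKM in mutant and 17.7 FPKM in wild-type total RNA (0.29 ± 0.15, adjusted p = 0.10 in the authors' deposited table). Next in level among the Ground-like genes, grl-4 had 46.5 FPKM in mutant and 16.6 FPKM in wild-type total RNA (1.49 ± 0.18 in the authors' deposited table). Lower down, grl-7 stood at 11.4 FPKM in mutant and 2.56 FPKM in wild-type total RNA, and its deposited log2 fold change was 2.15 ± 0.23. For grl-5 the values were 9.21 FPKM in mutant and 1.99 FPKM in wild-type total RNA, with a deposited log2 fold change of 2.21 ± 0.26. In all 5 of these Ground-like genes the mutant group was higher in both fractions.

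The single-gene families also rose. The gene qua-1, which is needed for molting, had 2.44 FPKM in mutant and 0.657 FPKM in wild-type total RNA (1.89 ± 0.23 in the authors' deposited table). For hog-1 the values were 3.16 FPKM in mutant and 1.11 FPKM in wild-type total RNA (1.51 ± 0.49, adjusted p = 0.013 in the authors' deposited table). Its deposited interval was 2.29 times as long as the annotated gene, and the gene overlaps atat-2 on the other strand. Whether the counting used strand was not given, and without it the reads of such a pair cannot be told apart.

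Of the receptor-like genes 14 of 23 tested rose and 2 fell. The falls were in the most abundant 2. In the mutant ptc-1 and ptr-2 made up 51.8% of the summed receptor-like level in total RNA, against 73.2% in wild type, and without them the sum was 143 FPKM in mutant and 100 FPKM in wild-type total RNA. The Patched homologue ptc-1, which is needed for cytokinesis in the germ line, lies on chromosome II (7893229 to 7900510, plus strand). It stood at 110 FPKM in mutant and 189 FPKM in wild-type total RNA, and at 66.1 FPKM in mutant and 133 FPKM in wild-type polysomal RNA. Its deposited log2 fold change was -0.78 ± 0.15 in total and -1.01 ± 0.15 in polysomal RNA, both with an adjusted p of 0.000207. The patched-related gene ptr-2 was at 44.1 FPKM in mutant and 85.6 FPKM in wild-type total RNA, and at 13.7 FPKM in mutant and 34.2 FPKM in wild-type polysomal RNA. Its deposited log2 fold change was -0.96 ± 0.15 in total and -1.32 ± 0.15 in polysomal RNA. Both genes were lower in the mutant in either fraction.

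The other coding gene of the ptc family, ptc-3, which is essential, moved the other way. It had 12.6 FPKM in mutant and 9.26 FPKM in wild-type total RNA, and the rise of 0.45 ± 0.16 on the log2 scale passed (adjusted p = 0.016 in the authors' table as deposited). The pseudogene ptc-2 stayed at 0.129 FPKM or less in all groups and was not tested. Among the ptr genes the largest rise in total RNA was that of ptr-4, which acts in the matrix under the cuticle, at 4.28 FPKM in mutant and 1.13 FPKM in wild type (1.92 ± 0.22 in the authors' deposited table). It was followed by ptr-18, an epidermal gene that has been linked to the clearance of GRL-7, at 4.47 FPKM in mutant and 1.37 FPKM in wild type (1.71 ± 0.22 in the authors' deposited table). The most abundant ptr gene that rose was ptr-23, known from the response to osmotic stress, at 20.4 FPKM in mutant and 10.2 FPKM in wild type (1.00 ± 0.16 in the authors' deposited table). By contrast ptr-21 had 24.8 FPKM in mutant and 24.1 FPKM in wild type and did not pass (0.04 ± 0.15 in the authors' deposited table). The annotated gene ptr-18 overlaps Y38F1A.4 on the other strand, which leaves its reads uncertain.

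Among genes that rose in total RNA the deposited log2 fold change ran from 0.39 to 2.93 for ligand-like and from 0.45 to 1.92 for receptor-like genes. The 12 ligand-like genes that did not pass ran from -0.75 to 2.29, and the 7 receptor-like ones from 0.04 to 1.55. Several of these had wide errors. The fold change of wrt-2 was 2.29 ± 2.18 and that of grd-15 1.50 ± 2.19 in the authors' deposited table. For grl-22 it was 1.57 ± 1.01 and for ptr-1 1.55 ± 0.81. All 4 have deposited intervals longer than the gene, and each gene overlaps a coding gene on the other strand (pccb-1 for wrt-2, cyn-15 for grd-15, W03A5.1 for grl-22 and spas-1 for ptr-1). Over all family genes 26 overlapped another coding gene, among them 8 of the 41 that rose or fell in at least 1 fraction.

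Low genes tend to differ in their calls from abundant ones, so the families were set beside entries of the same level. At a mean of 10 FPKM or more over the 4 groups, 52.9% of 17 family genes rose in total RNA, against 12.1% of 7397 entries, and 17.6% fell, against 47.4% of all entries at that level. At 1 to 10 FPKM 66.7% of 30 family genes rose, against 27.8% of 5491 entries. In both of these classes the share that rose was larger among the family genes. The class under 1 FPKM is not compared, because a gene that low could enter the test through its higher group alone.

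**Figure D3:**
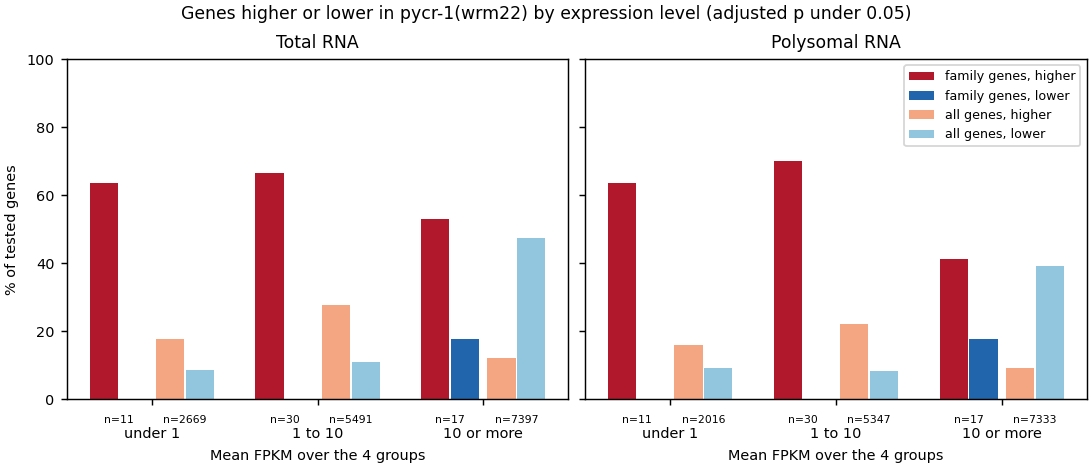
Percent of tested genes with an adjusted p under 0.05 that were higher (red, orange) or lower (dark and light blue) in pycr-1(wrm22), by mean FPKM over the 4 groups; the number tested is under each pair of bars, with family genes first and all genes after them, and the class under 1 FPKM is drawn but not compared, since a gene that low could enter the test through its higher group alone. In total RNA at 10 FPKM or more 52.9% of the family genes were higher, against 12.1% of all genes.

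In polysomal RNA the pattern between the strains was close to that in total RNA. Of 58 family genes tested, 35 rose and 3 fell, while 14.8% of 14696 entries rose and 23.9% fell. The median log2 fold change was 1.302 for 35 ligand-like and 0.81 for 23 receptor-like genes, against -0.07 for all entries. On the log2(FPKM + 0.1) scale over all genes the order turned, with 0.51 for 61 ligand-like and 0.61 for 26 receptor-like genes. The genes with the largest deposited log2 fold changes that passed were wrt-8 (2.34 ± 0.28), ptr-17 (2.13 ± 0.47), grl-15 (2.08 ± 0.30), grl-5 (2.07 ± 0.24) and wrt-6 (2.07 ± 0.24). Of these ptr-17 was a low gene, at 0.376 FPKM in mutant and 0.0862 FPKM in wild-type polysomal RNA. At 185 FPKM in mutant and 59.3 FPKM in wild-type polysomal RNA, grl-16 stayed the most abundant Ground-like gene (1.64 ± 0.17 in the authors' deposited table). In that fraction grd-14 had 142 FPKM in mutant and 65.5 FPKM in wild type (1.12 ± 0.18 in the authors' deposited table), and grl-21 had 103 FPKM in mutant and 27.6 FPKM in wild type (1.90 ± 0.18 in the authors' deposited table). At 181 FPKM in mutant and 286 FPKM in wild type, grd-3 was again lower (-0.65 ± 0.15, adjusted p = 0.000207 in the authors' deposited table).

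Together 33 genes rose in both fractions, 91.7% of those that rose in total and 94.3% of those that rose in polysomal RNA. The genes grd-5, grd-12 and ptr-14 passed in total RNA alone, and ptr-6 and ptr-15 in polysomal RNA alone, where ptr-15 did not pass when p was adjusted within that comparison. The fall of ptc-1, ptr-2 and grd-3 was seen in both fractions, and 0 genes rose in one and fell in the other. Across 56 genes tested in both, Spearman's rho between the log2 fold changes of the fractions was 0.85, and 0.95 across the 47 with a mean of 1 FPKM or more. Neither the shared counts nor rho are given over all entries, so they have no background. Replicate numbers recur in both fractions in the labels, which do not say whether equal numbers share a harvest, so these values may not be independent.

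The difference itself, the strain effect in polysomal RNA minus that in total RNA, was tested for 56 family genes with a Wald test on the deposited statistics. None passed at an adjusted p under 0.05, with undivided or with divided variances. With undivided variances an unadjusted p under 0.05 was met by 0 family genes and by only 32 of all 14335 entries. That test could thus pass hardly any gene, and its outcome says little about the family genes. Over all 14335 entries 0.0209% passed upward and 0.00% downward, 3 entries in all, and 22 entries passed with divided variances. Of the ligand-like genes 29 of 33 had a lower log2 fold change between strains in polysomal than in total RNA, with a median difference of -0.25. For receptor-like genes 10 of 23 did, with a median of 0.06, and over all entries 55.8% did, with a median of -0.04. For grl-16 the difference was -0.38 ± 0.24 and for wrt-8 it was -0.60 ± 0.43. The largest upward difference was that of ptr-15, at 1.48 ± 0.86, whose deposited interval was 3.77 times as long as the gene, which overlaps mec-1. At such errors a difference of this size was not detectable for a single gene.

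Polysomal over total RNA was then compared within each strain. In pycr-1(wrm22) 35 of 59 family genes tested were higher in polysomal RNA and 2 were lower, while 23.9% of 15425 entries were higher and 27% lower. In wild type 32 of 52 were higher and 3 lower, while 24.7% of 15266 entries were higher and 26.9% lower. With a fold of at least 2 required as well, 3 family genes were higher and 1 lower in mutant, and 12 were higher in wild type. In wild type ptr-2 was also lower by more than that fold (log2 ratio -1.32), and grl-32 was listed at 0 in polysomal RNA. The share of all entries at that fold is not given, so these counts have no background. The median log2 ratio of the ligand-like genes was 0.68 in mutant and 0.96 in wild type, and that of the receptor-like genes 0.39 in mutant and 0.41 in wild type. Over all entries it was 0.03 in mutant and 0.05 in wild type. The 28 genes that were higher in polysomal RNA of both strains were 80.0% of those in mutant and 87.5% of those in wild type. The same shares over all entries are not given, so this overlap has no background.

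The largest ratio that passed was that of grl-27, at 9.43 FPKM in polysomal and 3.77 FPKM in total RNA of the mutant (1.32 ± 0.26 in the authors' deposited table). In wild type it stood at 4.23 FPKM in polysomal and 1.57 FPKM in total RNA (1.43 ± 0.37 in the authors' deposited table). Close to it was grd-14, with deposited log2 ratios of 1.10 ± 0.17 in mutant and 1.39 ± 0.19 in wild type. Ligand-like genes that did not pass between the strains could also be higher in polysomal RNA, such as grd-13 at 1.10 ± 0.18 in mutant and 1.19 ± 0.21 in wild type, in the authors' deposited table. The only ligand-like gene called lower was grl-32, in wild type. It is a pseudogene listed at 0 in polysomal RNA of both strains and at 0.752 FPKM in mutant and 1.26 FPKM in wild-type total RNA.

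The receptor-like genes ptc-1 and ptr-2 had less polysomal than total RNA in both strains. For ptr-2 the level was 13.7 FPKM in polysomal and 44.1 FPKM in total RNA of the mutant, a deposited log2 ratio of -1.69 ± 0.15. In wild type it was 34.2 FPKM in polysomal and 85.6 FPKM in total RNA, a deposited log2 ratio of -1.32 ± 0.16. The deposited log2 ratios of ptc-1 were -0.73 ± 0.15 in mutant and -0.51 ± 0.15 in wild type. No other coding gene of the families had a call in that direction in either strain. The Patched homologue ptc-3 was higher in polysomal RNA, at 17.9 FPKM against 12.6 FPKM in total RNA of the mutant and at 12.3 FPKM against 9.26 FPKM in total RNA of wild type.

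**Figure D4:**
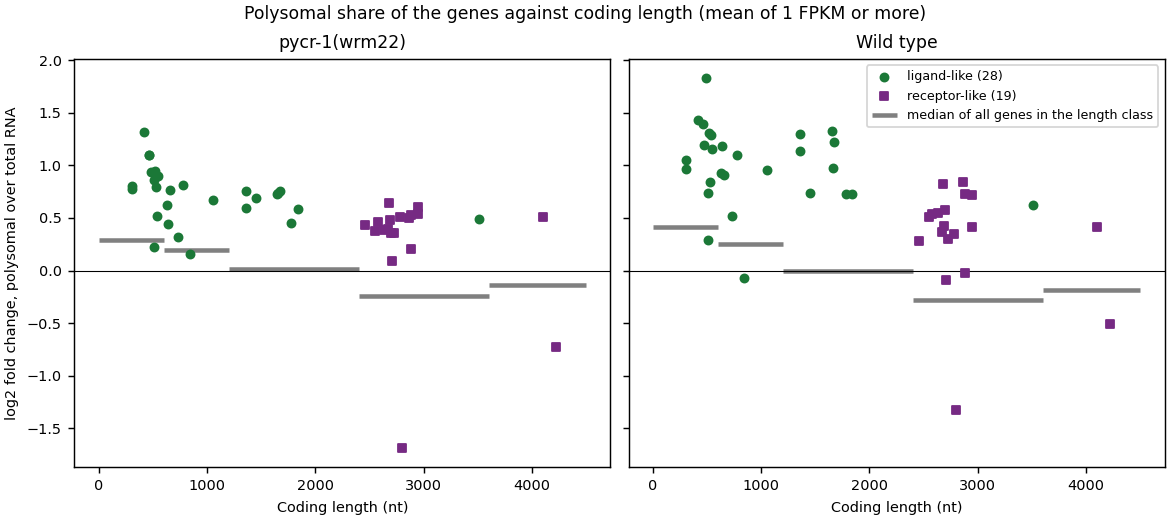
Log2 ratio of polysomal over total RNA against coding length in nucleotides for the 28 ligand-like (circles) and 19 receptor-like (squares) genes with a mean of 1 FPKM or more; grey bars are the medians of all genes in each length class. Ligand-like genes gather at short lengths and high ratios, and the receptor-like genes between 2400 and 3600 nucleotides lie above the grey bar there, except ptr-2.

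Ligand-like and receptor-like genes differ in size, and the median log2 ratio of all entries was lower in each longer length class up to that of 2400 to 3600 nucleotides. The tested ligand-like genes had a median coding length of 754.5 nucleotides in the mutant comparison and the receptor-like genes 2715 nucleotides. Spearman's rho between coding length and log2 ratio was computed over the 47 family genes with a mean of 1 FPKM or more. It was -0.63 in mutant and -0.66 in wild type, a description over genes that share libraries. Within the 28 ligand-like genes it was -0.57 in mutant and -0.33 in wild type. Within the 19 receptor-like genes it was 0.10 in mutant and -0.14 in wild type. The value over all 47 genes thus did not hold within the receptor-like genes. In each length class up to 3600 nucleotides the median of the family genes was higher than that of all entries, which was not tested. Under 600 nucleotides the median of 12 ligand-like genes was 0.88 in mutant and 1.18 in wild type, against 0.29 in mutant and 0.42 in wild type for all entries of that length. From 2400 to 3600 nucleotides the median of 17 receptor-like genes was 0.43 in mutant and 0.42 in wild type, against -0.24 in mutant and -0.28 in wild type for all entries of that length. Of those 17, 94.1% in mutant and 82.4% in wild type had a ratio above 0, against 37.7% in mutant and 37.8% in wild type of all entries.

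Genes that rose in total RNA lay on all 6 chromosomes. Chromosome V held 34 of the 87 genes, of which 10 of 16 tested rose in total RNA, and chromosome X held 13, of which 7 of 11 tested rose. Both shares were close to the 36 of 58 of all family genes tested. The share of all entries on each chromosome is not given. On chromosome II wrt-1 and wrt-10 lie end to end, 15 nucleotides apart on opposite strands, and both rose (1.83 ± 0.26 and 1.38 ± 0.27 in the authors' deposited table). On chromosome X grd-14 and grd-4 lie 184 nucleotides apart on the same strand, and only grd-14 passed (1.41 ± 0.19, against -0.18 ± 0.27 for grd-4 in the authors' deposited table). On chromosome IV grd-13, grd-3 and grd-10 follow each other on the plus strand, and grd-3 alone passed. The difference within these neighbours was not tested.

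Other genes tied to Hedgehog biology were taken from a list of 13, of which 12 had an entry of their own and 11 were tested. In total RNA 2 rose, 2 fell and the median log2 fold change was 0.31, and in polysomal RNA 2 rose and 0 fell. Over all entries 18.6% rose and 27.9% fell in total RNA, and 14.8% rose and 23.9% fell in polysomal RNA, so the number that rose was close to that background in both. The genes that rose were che-14, a homologue of the Hedgehog exporter Dispatched, at 0.931 FPKM in mutant and 0.479 FPKM in wild-type total RNA (0.96 ± 0.26 in the authors' deposited table), and daf-6, a patched-related gene of glia, at 0.803 FPKM in mutant and 0.369 FPKM in wild-type total RNA (1.12 ± 0.29 in the authors' deposited table). Those that fell in total RNA were tra-2, a sex determination receptor that resembles Patched (-0.79 ± 0.17 in the authors' deposited table), and rib-1, an enzyme of heparan sulphate synthesis (-0.77 ± 0.16 in the authors' deposited table). The Gli homologue tra-1, a sex determination factor, did not pass in total RNA, at 28.6 FPKM in mutant and 38.02 FPKM in wild type (-0.41 ± 0.19, adjusted p = 0.050 in the authors' deposited table). Among the Niemann-Pick C1 homologues, which share the sterol-sensing domain, neither ncr-1 nor ncr-2 passed (0.28 ± 0.16 and 0.77 ± 0.51 in the authors' deposited table).

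Marker lists of tissues and processes are given beside the families, to be read against the 18.6% of all entries that rose and the 27.9% that fell in total RNA. Of 11 molting and apical matrix genes 8 rose in total RNA and 0 fell, with a summed level of 104 FPKM in mutant and 58.3 FPKM in wild type. Of 13 epidermis and seam genes 4 rose and 1 fell, with 206 FPKM in mutant and 84.1 FPKM in wild type. The genes that rose were the cuticle collagens dpy-7, rol-6, sqt-1 and sqt-3. The epidermal transcription factor nhr-23 fell (-0.37 ± 0.16) and elt-3 did not pass (0.16 ± 0.18), in the authors' deposited table. The fall of nhr-23 was close to the median of -0.35 of entries at 5 FPKM or more in total RNA. In polysomal RNA nhr-23 rose (0.49 ± 0.20 in the authors' deposited table), and of the 13 epidermis and seam genes 7 rose and 0 fell there. Of 6 glia and sheath genes tested 2 rose and 0 fell, with 12.9 FPKM in mutant and 9.88 FPKM in wild type, and delm-1 was listed at 0 in wild-type total RNA. Beside the fall of ptc-1 and ptr-2, 12 of 13 oocyte and germline genes fell and 0 rose, with 1810 FPKM in mutant and 3320 FPKM in wild-type total RNA. These genes, like ptc-1 and ptr-2, had a mean of 10 FPKM or more over the 4 groups. At that level 47.4% of 7397 entries fell and 12.1% rose in total RNA, which is their nearer background. Of 6 embryo genes tested, from a list of 12, 5 fell and 0 rose. The list summed to 63.2 FPKM in mutant and 112 FPKM in wild type, of which pal-1 alone held 61.7 FPKM and 107 FPKM. The others that fell had at most 0.429 FPKM in mutant and 1.14 FPKM in wild type. Such low genes could enter the test through their higher wild-type group alone. In mutant total RNA med-1 was listed at 0. The lists of muscle (1 of 9 rose), neuron (3 of 12), intestine (3 of 10) and sperm (6 of 11) genes had 0 falls in total RNA. What part the makeup of the worms had in the values of the family genes was not tested.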

How the data were processed

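RNA was sequenced by the authors from total lysates and polysomal fractions of both strains. The submitters' processing notes name Cuffdiff 2.2.1, StringTie 1.3.4d, HISAT2 2.1.0 and FastQC 0.11.7, and the build WBcel235. How they were set, whether strand was used and what was done with multiply mapped reads is not given in the sources used here. The deposited table holds FPKM made by the authors, pooled by group, and for each pair of groups a log2 fold change, a test statistic (a score), a p-value and a q-value. The deposited q-values were within 5.24e-07 of a Benjamini-Hochberg adjustment over all 91924 tests. Pairs differing in both strain and fraction were left out.

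Because the files used here hold group values, the authors' test was used in place of a model per library. SEs were derived from the test statistics with variances divided by the number of libraries. The difference between fractions was a two-sided Wald test with undivided variances, adjusted over 14335 entries and repeated with divided ones. Its calculation was also run on differences simulated with the same undivided errors, which cannot show whether those errors fit the data. The 4 groups were taken as independent although the labels give both fractions of a strain the same replicate numbers. Medians use finite fold changes of tested entries. Python 3.11.15, pandas 2.3.3, numpy 2.4.6, SciPy 1.17.1 and matplotlib 3.10.9 were used. The genes, lists, tests and the rule for naming genes were chosen with earlier results of these data known. By that rule values are given for genes that reached 1 FPKM, the largest changes per direction, hog-1, qua-1 and all ptc genes. Entries naming several genes were left out, and 0 of 3085 held a family gene. No sequence is shown because none was in the files used here.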

Additional observations from a re-analysis of the deposited data

How the results depend on the processing

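The counts of genes that rose or fell kept their direction with adjustment within a comparison and a minimum of 1 FPKM. They also did so centred on all entries or on entries at 5 FPKM or more. The same held with genes that overlap another coding gene left out. The last, and centring the counts at 5 FPKM, were chosen after seeing the data. Counting entries with several names could not change them, since 0 of 3085 held a family gene. Between the strains the median of all entries was only -0.04 in total and -0.07 in polysomal RNA, so centring on it moved little. A minimum of 1 FPKM in at least 1 group can be met through the higher group alone. The class medians, run with both centrings, both pseudocounts and the 1 FPKM minimum, kept their sign. Without overlapping genes 29 rose in total and 28 in polysomal RNA. Requiring a fold of at least 2 left 27 of the 36 rises and 0 falls in total RNA. It left 3 genes higher and 1 lower in polysomal RNA of the mutant and 12 higher in that of wild type. In wild type ptr-2 was also lower in polysomal RNA by more than that fold (log2 ratio -1.32), and grl-32 was listed at 0 there. The share of all entries is not given for the counts without overlapping genes or at this fold, so they have no background. With 0.1 added to the FPKM of all family genes, untested ones included, the ligand-like median was 0.55 in total and 0.51 in polysomal RNA and the receptor-like median 0.52 and 0.61, so the order of the classes turned in polysomal RNA. With 1 added, it was 0.16 and 0.11, and the receptor-like median was 0.28 and 0.36, so the order turned in both; the ligand-like ratio of polysomal over total RNA was then 0.21 in mutant and 0.15 in wild type. A pseudocount shrinks low values by construction. In polysomal RNA hog-1 (1.302) did not pass with adjustment within the comparison or a minimum of 1 FPKM, and ptr-15 (1.82) did not pass with adjustment within the comparison. No paired analysis was possible because the files hold 1 value per group, and leaving out each replicate in turn was not run for the same reason. Depth is unknown, so a fall or rise among the 36 genes under 1 FPKM may have been missed.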
